A study of Mus musculus with 2 samples.

Results

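Arc, Npas4, Nr4a1, Nr4a2, Nr4a3, Nptx2, Nrn1, Plk2, Ptgs2 and Inhba are genes that neurons transcribe in response to synaptic activity, and their chromatin was described here in mouse hippocampus. The 10 genes were chosen by name, for what is known of them, out of 21938 protein-coding genes of the GENCODE M21 annotation. The choice used no measured value, but earlier results of these data were known when it was made. For each gene the promoter was taken as the bases within 500 bp of any annotated start, and the surroundings as the gene body with 50 kb on either side. DNase-seq, which maps where the enzyme DNase I can cut and therefore where chromatin is open, was available for 2 libraries of 1 group. Both came from hippocampus of female B6CASTF1/J mice aged 25 days, which are first-generation hybrids of the laboratory strain C57BL/6J and the wild-derived strain CAST/EiJ, and the labels name no treatment. The files used do not tell the parental alleles apart. The labels call the tissue a layer of the hippocampus without saying which. They give replicates 1 and 2 as biological replicates but carry the same donor entry for both, so the labels leave unsaid whether 2 animals were used, and differences between the replicates may be partly technical. With 1 group there was no contrast to test, and every value below is a description of these libraries.

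Synaptic stimulation raises calcium in the neuron, and kinases then act on factors that already sit at the promoters of such genes, among them CREB, which binds the cAMP response element (CRE), SRF, which binds the CArG box, and MEF2. For the immediate early genes among them, transcription starts within minutes and needs no new protein. In the hippocampus these genes mark recently active neurons and are known for their part in synaptic plasticity and memory.

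Sequences of promoters of Plk2, Nr4a1 and Nr4a3 are shown first, because shared footprints in them hold matches to known binding sites. A footprint is a short stretch within open chromatin that DNase I cut less than its flanks, as a bound protein can cause, and a footprint was counted as shared when those of both replicates overlapped by 50% of the shorter one. Overlapping footprints were joined, and the stretch given runs from the first to the last base covered in either replicate. Sequences are 5′ to 3′ from RefSeq and its mouse assembly GRCm38.p6, the same build as mm10, with shared footprints in capitals. The letters are those of this assembly and were not read from these hybrid mice, whose alleles may differ from it. A RefSeq promoter was found for 7 of the 10 genes, the exceptions being Arc, Nptx2 and Nrn1. The Plk2 promoter (chr13:110394794-110395043, plus strand) held the CRE TGACGTCA from base -62 to base -55 relative to the RefSeq start, with all 8 bases inside the footprint of each replicate. The Nr4a1 promoter (chr15:101266596-101266845, plus strand) held a GC box and an EGR site inside footprints of both replicates. The Nr4a3 promoter (chr4:48045055-48045152, plus strand), cut where its first exon begins, held a pair of CRE cores (TGACG) in a single shared footprint, of which one was inside the footprint of each replicate and the other inside that of replicate 1 alone.
Plk2: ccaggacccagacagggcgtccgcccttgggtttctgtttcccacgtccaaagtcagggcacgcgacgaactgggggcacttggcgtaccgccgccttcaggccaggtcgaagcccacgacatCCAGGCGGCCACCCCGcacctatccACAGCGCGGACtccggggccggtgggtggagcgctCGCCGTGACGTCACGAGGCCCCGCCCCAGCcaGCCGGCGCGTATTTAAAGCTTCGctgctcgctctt
Nr4a1: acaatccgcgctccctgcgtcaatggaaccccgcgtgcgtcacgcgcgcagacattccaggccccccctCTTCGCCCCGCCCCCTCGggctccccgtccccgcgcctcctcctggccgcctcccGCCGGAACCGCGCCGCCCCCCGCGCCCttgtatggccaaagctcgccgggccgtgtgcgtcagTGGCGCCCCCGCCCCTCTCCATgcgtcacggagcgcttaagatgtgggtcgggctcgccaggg
Nr4a3: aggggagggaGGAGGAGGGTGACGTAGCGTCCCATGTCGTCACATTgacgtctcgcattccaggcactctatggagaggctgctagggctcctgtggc
Shorter stretches were enough for the following genes. Npas4 had a shared footprint over a stretch with the letters TATATAA (chr19:4989983-4990008, minus strand). It lay just before an inner start, 345 bp inside the outermost one, and a second footprint lay further upstream (chr19:4990037-4990064). Nr4a2 had a second full CRE, shown in capitals, in a shared footprint of 17 bases before an inner start (chr2:57115073-57115089, minus strand). The footprint of replicate 1 covered 8 of its 8 bases and that of replicate 2 covered 7.
Npas4 near: gtcaggagctatataaggcggatcga
Npas4 far: ccagcctcccgcctcccgctgccccccc
Nr4a2: gtcgTGACGTCAggtcg

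Open chromatin was found at the promoters of nearly all 10 genes, though for most it was weaker than at an average open promoter. A promoter is called open when the stricter of the 2 peak lists of each replicate has a peak in it, and 9 of the 10 promoters were open in both replicates, against 54.2% of protein-coding genes. All 10 had a strict peak in replicate 1, where 60.2% of genes did, and 9 in replicate 2, where 54.8% did. With the longer peak lists, 10 of 10 promoters were open in both, against 59.7% of genes, and all 10 held a footprint in each replicate, against 56.9%. Genes with several starts or with CpG-rich starts are open more often: the share was 77.7% for genes with at least 4 annotated starts, which Nr4a2, Nr4a3, Nrn1 and Plk2 have. By the CpG content around the outermost start, the 10 genes fell in deciles in which 54.9% to 91.9% of genes were open. Only Plk2 and Arc had a promoter signal at or above the median of open promoters in both replicates, and 6 genes lay below it in both. That median was 3.93 in replicate 1 and 1.79 in replicate 2, in the authors' deposited signal value, whose scaling is not stated. For medians and percentiles of promoter signal, open promoters were all those with a strict peak in the replicate concerned, whether or not the other had it. In such bulk tissue, an open site in few cells and a weakly open site in many cells cannot be told apart.

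**Figure D1:**
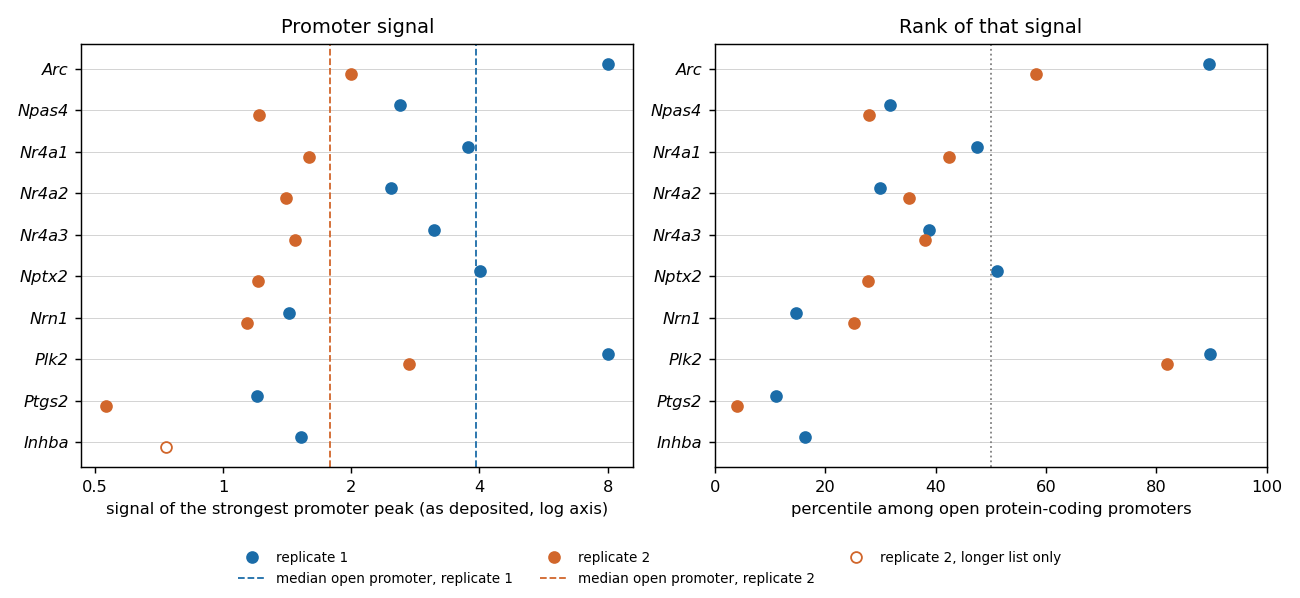
Signal of the strongest strict promoter peak of each gene in replicates 1 and 2 (left, log axis). Dashed lines mark the median open promoter of each replicate. The percentile of that signal among protein-coding promoters with a strict peak in the same replicate is on the right. Each point of Arc and Plk2 stands to the right of the median of its own replicate, and Ptgs2 is lowest among the genes open in both. The open circle marks Inhba, whose replicate 2 peak is in the longer list alone (0.735).

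Arc (chromosome 15, 74669083 to 74672570, minus strand), which encodes a postsynaptic protein that drives AMPA receptor internalisation, had a promoter signal of 8.015 in replicate 1 and 2.00 in replicate 2. Among open promoters these values had percentiles of 89.5 and 58.3. The replicate 1 value was 4.02 times that of replicate 2, a ratio at percentile 95.6 of open protein-coding genes, whose median ratio was 2.37 with quartiles of 1.95 and 2.89. So the rank of Arc depended on the replicate more than that of Plk2 did. Bases with a cut-rate false discovery rate (FDR) of 0.001 or less numbered 419 in replicate 1 and 401 in replicate 2 of the 1003 promoter bases. These were 41.8% of the window in replicate 1 and 40.0% in replicate 2. The 3 shared footprints were centred at 27, -29 and -94.5 bases from the start, and the one at -94.5 held a GC box.

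Npas4 (chromosome 19, 4984355 to 4990316, minus strand), which encodes a neuron-specific bHLH-PAS transcription factor, had a promoter signal of 2.61 in replicate 1 and 1.22 in replicate 2, with percentiles of 31.8 and 28.0 among open promoters. Both replicates placed it well below the median open promoter. An intronic site 1.14 kb inside the gene had a signal of 4.90 in replicate 1, more than the promoter, whereas replicate 2 had a peak there in its longer list alone, at 0.735. The 2 shared footprints nearest to the peak are those printed above.

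The 3 Nr4a genes encode orphan nuclear receptors that act as immediate early transcription factors. Nr4a1 (chromosome 15, 101254269 to 101274795, plus strand) had a promoter signal of 3.76 in replicate 1 and 1.59 in replicate 2. Nr4a2 (chromosome 2, 57106830 to 57124003, minus strand) had 2.49 in replicate 1 and 1.40 in replicate 2. Nr4a3 (chromosome 4, 48045153 to 48086447, plus strand) had 3.13 in replicate 1 and 1.48 in replicate 2. All lay below the median open promoter in both replicates, at percentiles between 29.9 and 47.4, and their order was Nr4a1, Nr4a3, Nr4a2 in each. For Nr4a1 and Nr4a2 the peak of both replicates was at an inner start and not at the outermost one. At Nr4a1 it stood at a start 12577 bp inside, while the outermost start had a strict peak in replicate 1 alone, of 1.77. At Nr4a2 it stood at a start 8965 bp inside, while the outermost start again had a strict peak in replicate 1 alone, of 1.76. Nr4a3 was open at its outermost start.

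Openness at Nr4a2 reached over more bases in replicate 1 than in replicate 2. In replicate 1 the promoter windows of Nr4a2 held 998 bases at an FDR of 0.001 or less and 14 footprints, and in replicate 2 they held 161 such bases and 4 footprints. Nr4a2 also had 4 intronic peaks 6.21 to 7.85 kb inside the gene in replicate 1, of which 2 had a counterpart in the longer list of replicate 2. Their signals in replicate 1 were between 1.18 and 1.52. The full CRE of Nr4a2 was in a footprint centred at base -43 from the inner start, the one open in both replicates.

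Genes for proteins at the synaptic surface came next. Nptx2 (chromosome 5, 144545902 to 144557478, plus strand) encodes a secreted pentraxin that clusters AMPA receptors, and its promoter peak reached 4.01 in replicate 1 and 1.21 in replicate 2. It was thus at percentile 51.1 of open promoters in replicate 1 and at 27.7 in replicate 2, on either side of the median. Its FDR profile was a single summit, as high at its best base as that of Plk2 in replicate 1, with a −log10 FDR of 35.9 for Nptx2 and 35.8 for Plk2. Replicate 2 gave 14.4 for Nptx2 and 21.8 for Plk2, so the likeness held in replicate 1 alone.

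Nrn1 (chromosome 13, 36725361 to 36735131, minus strand), which encodes the GPI-anchored neurite growth protein neuritin, had a promoter signal of 1.43 in replicate 1 and 1.14 in replicate 2. The ratio of 1.25 was the lowest of the gene set and at percentile 2.08 of open protein-coding genes. Low signal went with a wide open stretch: 2025 of 3669 promoter bases had an FDR of 0.001 or less in replicate 1, the most of the 10 genes, against 349 in replicate 2. Replicate 1 had 4 further peaks at the promoters of Nrn1 that were absent from the strict list of replicate 2, each with a counterpart in the longer list of replicate 2. The peaks at 36734022 to 36734620 and 36734261 to 36734620 overlap and share a counterpart, so they are not separate sites.

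Plk2 (chromosome 13, 110395046 to 110400844, plus strand), which encodes a polo-like kinase that acts in homeostatic weakening of synapses, had a promoter signal of 8.03 in replicate 1 and 2.74 in replicate 2. It was the strongest promoter of the gene set in both replicates, at percentiles 89.6 and 82.0 of open promoters. Plk2 also had the most shared promoter footprints, 6 of the 25 over all 10 genes, out of 8 footprints in replicate 1 and 7 in replicate 2. One of them covered 30 bases with the CRE and a GC box, the GC box being inside the footprint of replicate 2 alone, and the next, 23 bases wide, was centred at base -26 from the start. A second shared peak, of 1.88 in replicate 1 and 1.46 in replicate 2, was centred 0.605 kb before the start and held no footprint in either replicate.

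Ptgs2 (chromosome 1, 150100031 to 150108227, plus strand) encodes COX-2, the inducible enzyme of prostaglandin synthesis, and had a promoter signal of 1.20 in replicate 1 and 0.533 in replicate 2. These were the lowest values among the 9 open promoters, at percentiles 11.1 and 3.94 of open promoters. The antisense transcript gene Ptgs2os shares this region, so the peak cannot be given to one of them. No other strict peak of either replicate lay within the surroundings of Ptgs2. Its promoter held 497 bases at an FDR of 0.001 or less in replicate 1 and 89 in replicate 2, and a single shared footprint, 13 bases wide.

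Inhba (chromosome 13, 16011851 to 16031621, plus strand), which encodes the subunit of activin A, was the gene not open in both. Replicate 1 had strict promoter peaks of up to 1.52, and replicate 2 had a peak of 0.735 in its longer list alone. Among the 2002 promoter bases, 492 had an FDR of 0.001 or less in replicate 1 and 0 in replicate 2. Inhba had 11 promoter footprints in replicate 1 and 1 in replicate 2, and none was shared. Inhba was also the gene with its best promoter base at the edge of the window, 500 bases from the nearest start in replicate 1 and 499 in replicate 2.

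**Figure D2:**
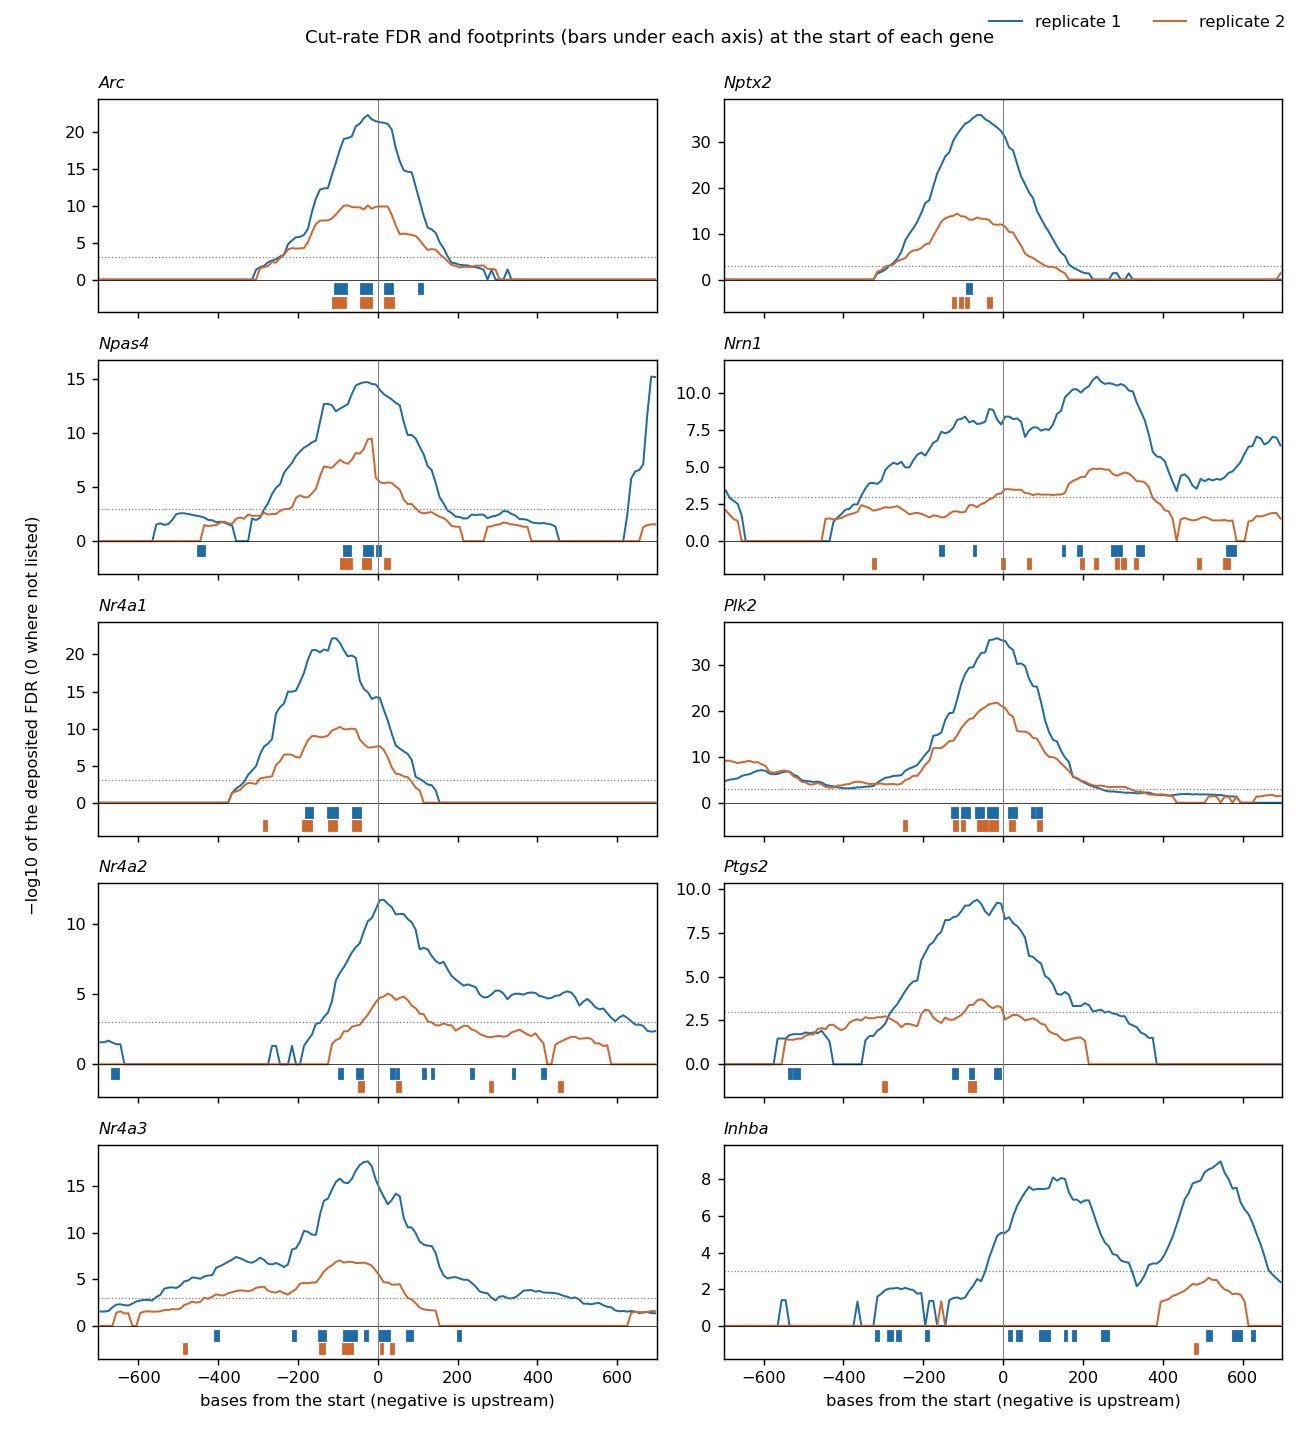
The −log10 of the deposited cut-rate FDR (0 where the files list none) by bases from the annotated start with the strongest peak, with footprints of each replicate as bars under the axis and a dotted line at an FDR of 0.001. Arc, Nr4a1 and Nptx2 have a single narrow summit in both replicates, and Plk2 a narrow summit with a lower second one upstream. Nrn1, Nr4a2 and Nr4a3 have a wide one in replicate 1, and Inhba stays under the dotted line in replicate 2.

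Summit heights come from the same cuts as the peak signals and are no independent measure of openness. The highest −log10 FDR in the promoter windows was higher in replicate 1 than in replicate 2 for all 10 genes, from 35.9 (Nptx2) to 8.12 (Inhba) in replicate 1 and from 21.8 (Plk2) to 2.32 (Inhba) in replicate 2. At least 1 promoter base reached an FDR of 0.001 in both replicates for 9 genes, against 55.1% of protein-coding genes. Such bases numbered 3273 over the 10 genes. They made up a median of 15.8% of the promoter window in the 9 open genes, against 21.4% in all open protein-coding genes. All 9 open promoters had the higher signal in replicate 1, as did 96.5% of the 37119 regions shared by both replicates, and the median ratio was 2.25 in the 9 genes and 2.37 over open protein-coding genes. Depth per library cannot be read from the files used, and its part in the difference was not tested.

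Of the known activity sites, the short CRE core was common in the promoters of these genes, and most others were rare or absent. The motifs were searched on both strands in the 250 bases before and 50 bases after the RefSeq start, in the 7 promoters and in 32851 RefSeq promoters of the same length. The CRE core (TGACG) occurred in 6 of 7, all but Inhba, against 20.8% of promoters, and the full CRE (TGACGTCA), which contains it on either strand, in 1 of 7, Plk2, against 1.79%. Nr4a3 had 4 CRE cores, of which 3 were in shared footprints and 1 inside the footprints of each replicate, and Nr4a1 had 4, of which none was in a footprint. A GC box (GGGCGGG) occurred in 5 of 7 against 25.6%, and an EGR site (GCGNGGGCG), which can overlap a GC box, in 2 of 7, Nr4a1 and Nr4a2, against 5.55%. The MEF2 site occurred in Nr4a2 and Inhba, 2 of 7 against 3.19%, and the TATA box (TATAAA) in the same 2 genes against 13.6%, with the letters of the MEF2 site and the TATA box overlapping in both. The RefSeq promoter of Nr4a2 is that of its outermost start, which had a strict peak in replicate 1 alone, and Inhba was not open in both replicates, so the matches counted for these genes are not at a start open in both. At least 1 of CRE core, AP-1, CArG box, MEF2 site and NBRE occurred in 7 of 7, against 32.1%. This came from the CRE core in 6 genes and from the MEF2 site alone in Inhba. The 32851 promoters were not matched for CpG content, and the CRE core and the GC box both contain a CG. None of the 7 held AP-1 (TGANTCA, 7.81% of promoters), the SRF CArG box (1.63%), NBRE (AAAGGTCA, 1.51%), the NF-kB site (0.411%), the CTCF core (0.0365%) or the NeuroD E-box (CAGATG, 17.2%) in this window. A match is a description of letters, and a missing match says only that they are not in this window.

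Around the genes, open regions away from promoters were about as many as around other genes. Distal regions were taken as peaks shared by both replicates outside the promoter windows of all protein-coding and long noncoding RNA genes. The 10 genes had 17 of them, with a median of 1 and a mean of 1.7 per gene, against a median of 1 and a mean of 1.88 over all protein-coding genes and a median of 2 over those with open promoters. Nr4a1 had 5, Npas4 4, Nr4a3 3 and Plk2 2, Arc, Nptx2 and Nrn1 had 1 each, and Nr4a2, Ptgs2 and Inhba had 0. No shared distal region was found for 3 of 10 genes, against 27.6% of all genes, and at least 4 for 2 of 10, against 16.3%. Of the 17, 12 were upstream, 5 downstream and 0 within the gene body, 16 were intergenic and 15 held a shared footprint. In addition, 25 distal peaks were in the strict list of replicate 1 alone and 9 in that of replicate 2 alone, and 12 of the 25 and 4 of the 9 had a counterpart in the longer list of the other replicate. Shares over all genes or all shared distal regions were not computed for these placements, footprints and single-replicate peaks. They therefore describe this set alone and show no trait particular to it.

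**Figure D3:**
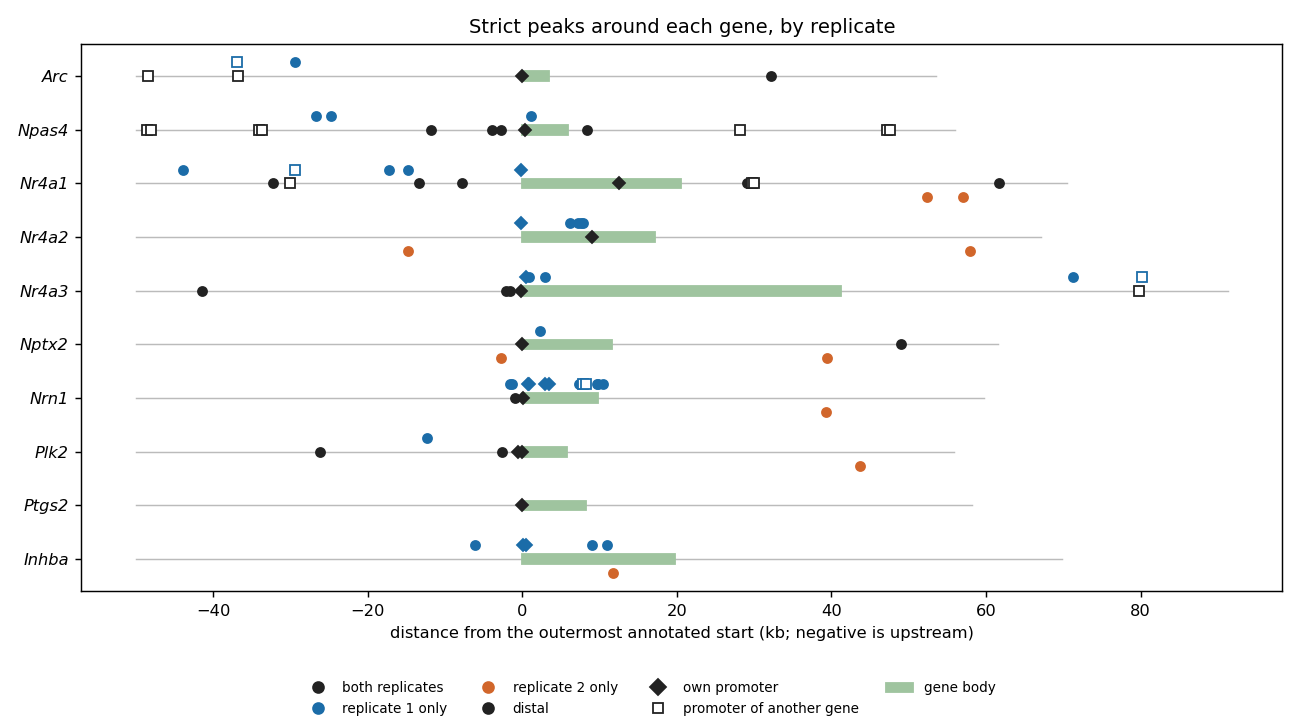
Strict peaks around each gene by distance in kb from its outermost annotated start, with the gene body as a green bar, peaks of both replicates in black on the line, those of replicate 1 alone above it in blue and those of replicate 2 alone below it in orange. Circles are distal peaks, diamonds the gene's own promoters and open squares promoters of other genes. Nr4a1 and Npas4 have the most shared distal regions, and Ptgs2 has its promoter peak alone.

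Distances that follow are from the outermost start of the gene, with negative values upstream. The region at -32.3 kb of Nr4a1 was the strongest distal region of the gene set by mean percentile, with a signal of 9.32 in replicate 1 and 1.91 in replicate 2. It lies in exons of the noncoding genes A330009N23Rik and AU021063 and nearer to the start of Grasp than to that of Nr4a1, so it cannot be credited to Nr4a1. Nearer to Nr4a1, the region at -13.4 kb had 6.94 in replicate 1 and 2.19 in replicate 2, and that at -7.86 kb had 4.49 in replicate 1 and 2.20 in replicate 2. The region at -7.86 kb was the single distal one with a CRE core inside footprints of both replicates.

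Npas4 had shared regions on both sides. The strongest, at -11.8 kb, had 4.13 in replicate 1 and 1.62 in replicate 2, and smaller ones stood at -3.94 kb, -2.80 kb and 8.34 kb. At -2.80 kb the signal was 1.21 in replicate 1 and 1.31 in replicate 2. This was the one region of the 17 that was higher in replicate 2. Its pair of AP-1 matches lay outside the footprints of both replicates. Npas4 lies in a gene-dense stretch, with 5 other protein-coding genes in its surroundings, all of them open in both replicates.

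At Nr4a3 the strongest distal region, at -1.66 kb, had 4.04 in replicate 1 and 2.14 in replicate 2. Its signal exceeded that of the promoter of Nr4a3 in both replicates, and a second region adjoined it at -2.13 kb. Plk2 had a region at -2.63 kb, of 4.65 in replicate 1 and 1.08 in replicate 2, and one at -26.2 kb with 5 shared footprints, of 1.83 in replicate 1 and 1.12 in replicate 2, which is nearer to the start of Gapt than to that of Plk2. Nrn1 had a region at -1.01 kb, of 2.29 in replicate 1 and 1.04 in replicate 2, and in replicate 1 this too was above its promoter signal. The single regions of Arc at 32.2 kb, nearest to the start of Mroh4, and of Nptx2 at 49.1 kb were weak, with 1.53 and 0.544 in replicate 1 and 0.720 and 0.420 in replicate 2.

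For the 5 genes with the strongest of these regions by mean percentile, the sequence of the strongest one is shown on the plus strand of mm10 with shared footprints in capitals, whole or as their central 300 bases. They are the regions of Nr4a1 (chr15:101221841-101222040), Nr4a3 (chr4:48043341-48043640), Npas4 (chr19:5001931-5002230), Plk2 (chr13:110392340-110392500) and Nrn1 (chr13:36735991-36736290).
Nr4a1 distal: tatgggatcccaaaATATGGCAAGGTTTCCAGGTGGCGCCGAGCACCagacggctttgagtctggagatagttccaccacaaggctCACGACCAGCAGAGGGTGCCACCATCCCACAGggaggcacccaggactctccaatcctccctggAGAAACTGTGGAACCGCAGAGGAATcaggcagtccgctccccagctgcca
Nr4a3 distal: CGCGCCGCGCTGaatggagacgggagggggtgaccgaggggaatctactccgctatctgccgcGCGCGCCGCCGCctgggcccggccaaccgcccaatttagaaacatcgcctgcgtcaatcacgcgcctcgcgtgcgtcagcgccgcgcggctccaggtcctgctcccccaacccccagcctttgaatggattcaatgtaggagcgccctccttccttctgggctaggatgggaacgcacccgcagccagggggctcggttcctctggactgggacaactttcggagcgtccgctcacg
Npas4 distal: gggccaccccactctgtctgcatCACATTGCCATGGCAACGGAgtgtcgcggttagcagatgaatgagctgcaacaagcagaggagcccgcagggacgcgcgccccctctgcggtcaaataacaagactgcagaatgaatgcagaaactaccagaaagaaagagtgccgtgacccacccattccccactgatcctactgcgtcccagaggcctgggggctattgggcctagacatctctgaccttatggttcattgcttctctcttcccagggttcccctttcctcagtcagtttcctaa
Plk2 distal: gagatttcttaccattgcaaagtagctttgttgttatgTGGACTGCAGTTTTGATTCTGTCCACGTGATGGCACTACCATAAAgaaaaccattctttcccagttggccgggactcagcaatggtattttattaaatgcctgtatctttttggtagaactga
Nrn1 distal: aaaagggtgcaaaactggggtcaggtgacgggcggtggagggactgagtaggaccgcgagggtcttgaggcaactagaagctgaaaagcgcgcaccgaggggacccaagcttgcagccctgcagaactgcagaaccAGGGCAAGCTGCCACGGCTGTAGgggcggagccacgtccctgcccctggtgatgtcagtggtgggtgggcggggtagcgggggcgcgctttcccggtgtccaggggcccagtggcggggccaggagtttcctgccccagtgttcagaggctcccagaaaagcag
The Nr4a1 region held 3 shared footprints, of 33, 32 and 25 bases in replicate 1 and 11, 26 and 7 bases in replicate 2. That of Plk2 held one, of 45 bases in replicate 1 and 25 in replicate 2. Within 200 bp windows at the centre of the 17 regions, a NeuroD E-box occurred in 5, against 24.4% of the 21904 shared distal regions, a CRE core in 3, against 9.85%, an EGR site in 3, against 0.959%, and AP-1 in 1, against 6.89%. The TATA box occurred in 2, against 6.8%, and a GC box in 1, against 5.25%. None held the full CRE (0.502%), the CArG box (0.922%), the MEF2 site (1.95%), NBRE (0.571%), the NF-kB site (0.247%) or the CTCF core (0.0183%) in that window. Over their whole length, outside that window, the Npas4 region at -11.8 kb held the CArG box CCAAAATAGG and the Nr4a3 region at -2.13 kb the MEF2 site CTAAAAATAG, both outside footprints. With 17 regions, each of these counts rests on few windows.

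Arc is known for a synaptic activity-responsive element upstream of its promoter, where CREB, SRF and MEF2 act together. The strict lists had no peak between the promoter of Arc and -29.5 kb in either replicate. In the longer lists, which were looked up there after the other values had been seen, both replicates had a peak at about -6.7 kb, of 1.17 in replicate 1 and 0.900 in replicate 2. The best base in it had a −log10 FDR of 1.87 in replicate 1 and 2.82 in replicate 2, so neither reached an FDR of 0.001. Replicate 1 had 0 footprints in it and replicate 2 had 2. The stretch covered by these peaks (chr15:74679141-74679382, minus strand, the strand of Arc) holds, in capitals, a CRE core, the CArG box CCTTTTATGG and a NeuroD E-box. No match to the MEF2 site was found in this stretch.
Arc upstream: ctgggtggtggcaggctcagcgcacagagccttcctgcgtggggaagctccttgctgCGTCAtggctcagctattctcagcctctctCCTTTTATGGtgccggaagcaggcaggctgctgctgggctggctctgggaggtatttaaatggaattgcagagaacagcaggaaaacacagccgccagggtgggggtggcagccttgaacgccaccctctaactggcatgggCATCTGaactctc

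Other activity genes, on 3 lists chosen by name, show where the gene set stands. The Fos and Jun family, which forms AP-1, was open at 7 of 7 promoters, Egr and Nab genes, of the Egr transcription factors and their corepressors, at 6 of 6, and 26 other activity genes at 26 of 26. Median percentiles among open promoters were 38.7 in replicate 1 and 35.2 in replicate 2 for the 9 open genes of the set. They were 75.7 and 63.8 for Fos and Jun genes, 37.9 and 44.7 for Egr and Nab genes, and 68.5 and 62.5 for the other activity genes, in the same order of replicates. Within those lists Jun (8.96 in replicate 1 and 4.58 in replicate 2) and Egr1 (13.4 and 3.59) were the highest of theirs, and Nab1 (1.15 and 0.735) and Pcsk1 (1.18 and 0.398) the lowest. The median number of shared distal regions was 1 for the set, 4 for Fos and Jun genes, 2 for Egr and Nab genes and 1 for the other activity genes, against 1 over all protein-coding genes. These differences were not tested.

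**Figure D4:**
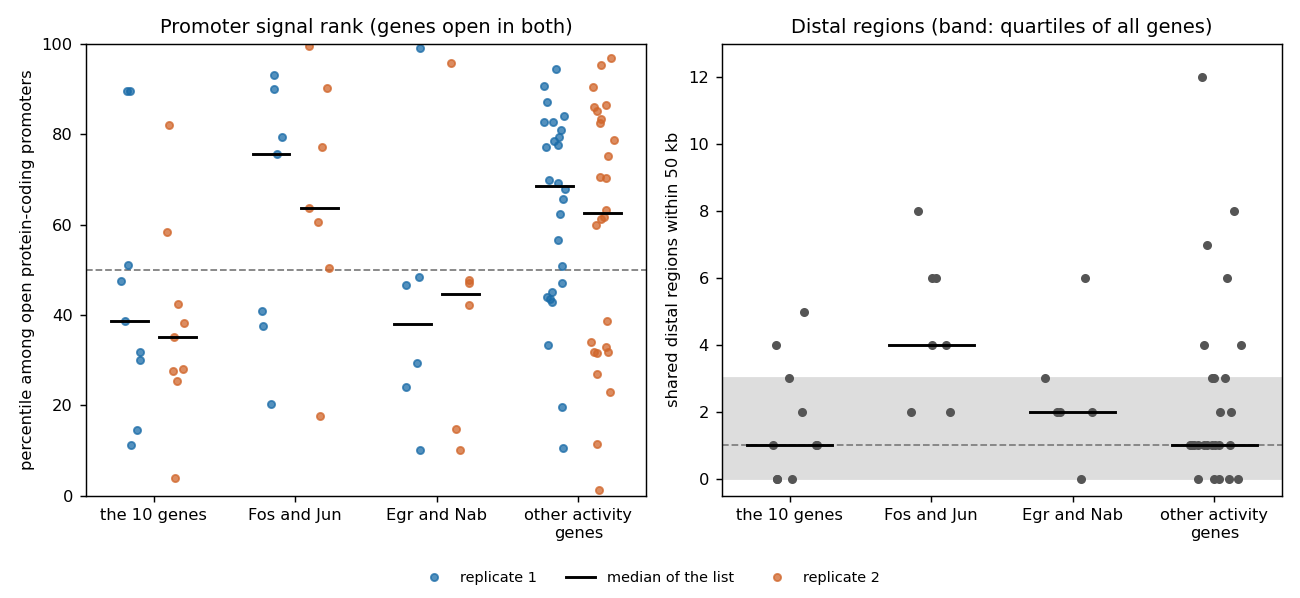
Percentile of the promoter signal among open protein-coding promoters, per gene and replicate (left), and number of shared distal regions per gene (right, band between the quartiles 0 and 3 of all protein-coding genes, dashed line at their median of 1), with black bars at list medians. The 9 open genes of the set lie mostly under the middle of the scale, and the distal counts of the 10 genes lie between 0 and 5.

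The tissue label was checked by promoters open in both replicates. They were open for 10 of 14 excitatory and pan-neuronal markers, 2 of 7 astrocyte, 0 of 8 oligodendrocyte, 0 of 9 inhibitory neuron (Gad1 and Gad2 among them) and 0 of 6 endothelial markers, and for 0 of 8 genes of tissues outside the forebrain. The strict lists held 61466 peaks in replicate 1 and 50379 in replicate 2, and the footprint lists 236942 in replicate 1 and 159538 in replicate 2.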

How the data were processed

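DNase-seq of 2 mouse hippocampus libraries, replicates 1 and 2 of 1 group, was used as deposited. Per the labels, coordinates are on mm10 and every file rests on 1 library. No aligner, peak caller or scaling is named (not given in the sources used here), and depth per library is unknown. The deposited peak lists give a signal per peak, and the authors' cut-rate files give a p-value, as an FDR, per stretch of bases up to 0.05. The deposited footprints carry a constant FDR of 0.01 and could not be ranked. The strict list of a library is the one with fewer peaks.

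Starts came from GENCODE M21 and sequences from RefSeq on GRCm38.p6, in which the 7 RefSeq promoters equal the genome. Peaks of both replicates that overlap by 1 bp or more were joined to shared regions. Each signal was ranked as a percentile within its library. Python 3.11.15, numpy 2.4.6, pandas 2.3.3, pysam 0.24.0, samtools 1.23.1 and matplotlib 3.10.9 were used, and overlaps, windows and motif searches were tested on simulated data. All 10 genes are named. Of the comparison lists some of the highest and lowest promoters are named. The sequences printed are those of the strongest shared distal regions, at most 5, besides promoters, footprints and the stretch upstream of Arc. Genes, lists and motifs were chosen with earlier results of these data known. Tried alternatives were each replicate alone, the longer lists, peaks at or above the median signal, promoter windows of 200 and 2000 bp, surroundings of 20 and 100 kb, basic transcripts, stricter overlap, an FDR of 0.05 and wider motif windows.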

Additional observations from a re-analysis of the deposited data

How the results depend on the processing

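No paired analysis was possible because both libraries form 1 group. The number of promoters open in both replicates (9) ranged from 7 with peaks at or above the median signal to 10 with the longer lists, and the number with a footprint in both (10) was 9 with a window of 200 bp and 10 otherwise. The 17 shared distal regions became 42 with the longer lists, 11 in surroundings of 20 kb and 29 in 100 kb, and 27 to 43 with a single replicate. With the longer lists Nrn1 had 7 and Inhba 3, Ptgs2 had 0 under every alternative run, and the median over all protein-coding genes became 3. The 3273 promoter bases at an FDR of 0.001 became 6930 at an FDR of 0.05, and 3367 to 7647 with a single replicate. The 88 shared footprints became 195 to 344 in a single replicate. The median promoter percentile, 75.5 among all peaks of a library, was 37.0 among promoter peaks of protein-coding genes, a ranking against promoter peaks alone, and 73.7 to 77.3 with a single replicate. Taken at the peak nearest the outermost start, the percentile of Nr4a1 was 69.6, against 80.1 at its strongest peak. Among motifs, the wider window raised the MEF2 site to 4 of 7 promoters, the NeuroD E-box to 2 and NF-kB to 1. Depth is unknown for both libraries, so a peak missing from either list does not show absence of open chromatin.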
